A study of Danio rerio with 6 samples.

Results

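Markers of cerebellar neurons and their progenitors were followed on arrays of RNA from whole zebrafish embryos, in a study of *tdp1*, the gene whose human counterpart is mutated in the cerebellar disorder SCAN1. The set of 10 genes holds *aldoca*, *pvalb7* and *ca8* for Purkinje cells, *atoh1a*, *atoh1b*, *atoh1c* and *ptf1a* for progenitors, and *neurod1*, *zic1* and *reln* for granule cells. A gene was taken where the platform annotation gave a transcript cluster (1 row of the array table) that symbol alone, which held for 9 of the 10, out of 19260 genes so named in all. The exception was *pvalb7*, whose only cluster also carries the symbol of another gene, so no value of it is given. Only *reln* had several clusters, and the one with the highest mean represents it.

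The study compared 3 arrays of tdp1-/- embryos with 3 arrays of tdp1WT embryos at 5 dpf (days post-fertilization). Embryos of both genotypes had been kept in 500 nM camptothecin (CPT), which traps topoisomerase 1 on DNA, for 16 hours, and no array of untreated embryos was analysed here. The mutants carry small frameshift deletions made with CRISPR-Cas9 in the first coding exon, and the line has a mixed background of London wild type and nacre. The name tdp1-/- covers fish homozygous for 1 allele and fish with both alleles, and the sources used here do not say which of these were on the arrays. Arrays of each genotype came from biologically independent experiments.

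The cerebellum arises from a pair of progenitor zones in the dorsal hindbrain. The rhombic lip uses the Atoh1 family of basic helix-loop-helix factors and gives rise to granule cells and other glutamatergic neurons, while the ventricular zone uses Ptf1a and gives rise to Purkinje cells and other GABAergic neurons. Purkinje cells receive the parallel fibres of the granule cells, and the Reelin protein released by granule cells guides their positioning. Several of these genes also work elsewhere in an embryo: *ptf1a* in the exocrine pancreas and in amacrine cells of the retina, *neurod1* in the retina and the endocrine pancreas, and *atoh1a* in the hair cells of the ear and lateral line. In RNA of whole embryos, fewer cells of a type and less RNA per cell cannot be told apart.

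The array values are log2 values after robust multi-array averaging (RMA). They can be set against each other between arrays for 1 gene, but not between genes, whose probes differ. Array medians ran from 4.66 to 4.87. The differences between genotypes given below are log2 fold changes, tdp1-/- minus tdp1WT. The mutated gene was checked first: the *tdp1* cluster was lower on every tdp1-/- array than on every tdp1WT array, and differed by -0.40 on the log2 scale (95% confidence interval, here called the 95% interval, -0.79 to -0.01). That interval no longer excluded 0 when any 1 array other than tdp1WT replicate 2 was left out, with -0.27 without tdp1WT replicate 3.

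None of the 9 cerebellar markers was called different between CPT-treated tdp1-/- and tdp1WT embryos in the fit with genotype alone. With the replicate number as a further term, or block, 1 of the 9 was called, *atoh1c*, where that fit called 4.04% of all genes. The call asked for an unadjusted p under 0.05 in limma, fitted over all 75212 rows, and a change of over 1.2-fold, the fold threshold of the study. Among all genes with 1 symbol 1.89% were called this way (0.852% higher and 1.04% lower in tdp1-/-), and among all rows 3.57%, so that no call in a set of 9 is close to the background share. None of the 75212 rows was under an adjusted p of 0.05 in limma, where 2688 were under an unadjusted p of 0.05, and the adjusted p was 1 for each of the 9. The log2 fold changes (tdp1-/- minus tdp1WT) ran from -0.30 for *aldoca* to 0.35 for *atoh1c*, with a median of 0.01 against -0.005 over all genes. Values were lower in tdp1-/- for 4 of the 9, against 51.4% of all genes, and higher for 5. The arrays of the genotypes overlapped in all 9. They did not overlap in 7.72% of all genes, so overlap in all of a set of 9 is close to the background share. The standard errors lay between 0.14 and 0.22 on the log2 scale. The 95% confidence intervals, each taken for 1 gene, allowed differences in array value of at most 1.26-fold for *ca8* and of at most 1.68-fold for *atoh1c*, the narrowest and the widest of these limits. The means of *atoh1c* and *atoh1b* lay above only 16.5% and 38.2% of all rows, and those of *atoh1a* and *aldoca* above 45.7% and 46.6%. Whether such dim genes were above background is not known.

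**Figure D1:**
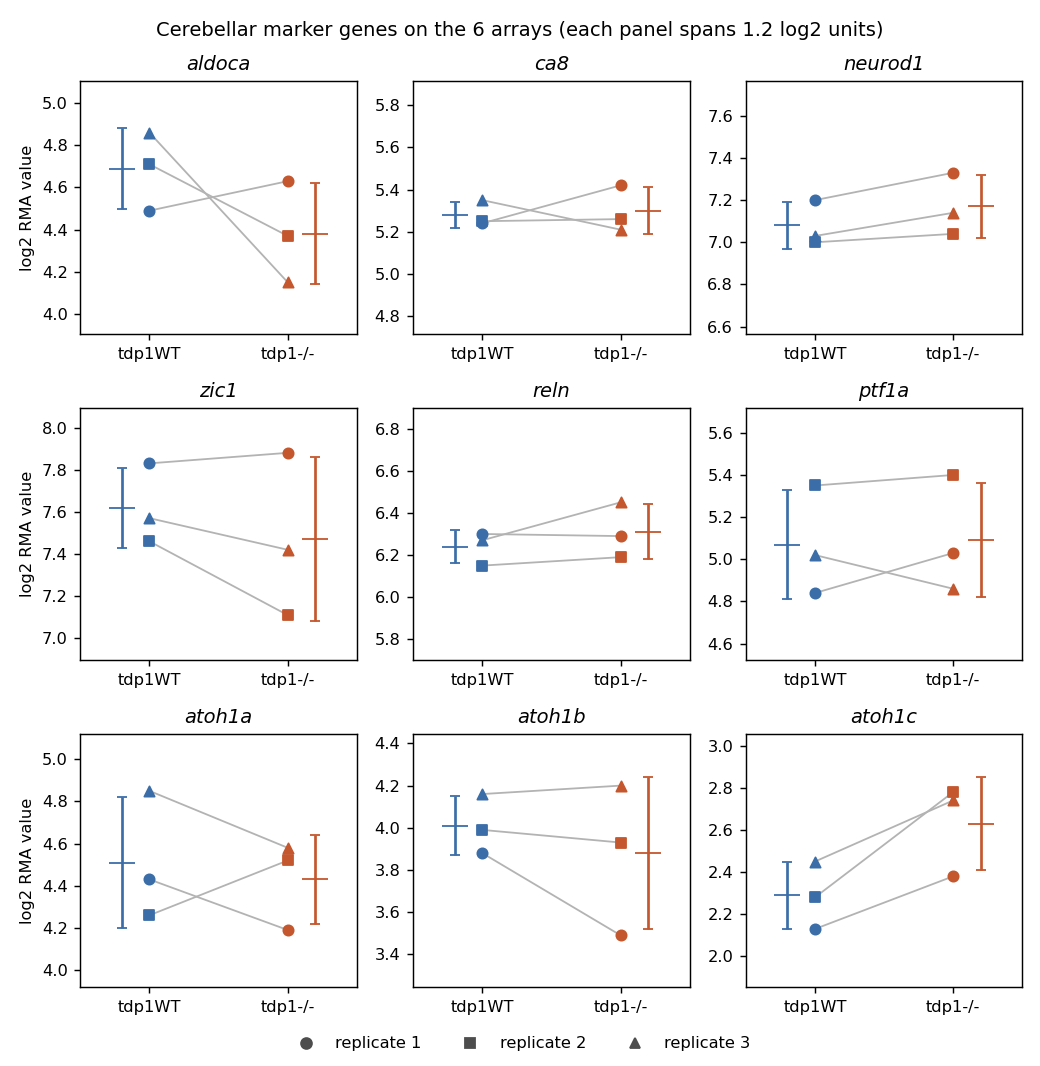
Log2 RMA values of the 9 measured cerebellar marker genes on 3 tdp1WT (blue) and 3 tdp1-/- (orange) arrays, with marker shape for the replicate number, grey lines between same-numbered arrays and bars for mean ± SD (n = 3). The genotypes overlap in every panel, as in all but 7.72% of all genes. All 3 lines rise only for *neurod1* and *atoh1c*, as in 14.4% of all genes.

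Of the Purkinje cell genes, *aldoca* had the lowest log2 fold change of the set and *ca8* one of the smallest in size. The gene *aldoca* encodes an aldolase of glycolysis that is the zebrin II antigen of Purkinje cells. It measured 4.49, 4.71 and 4.86 in tdp1WT and 4.63, 4.37 and 4.15 in tdp1-/- embryos (replicates 1 to 3). The array of tdp1-/- replicate 1 lay among the tdp1WT arrays, and the other two mutant arrays lay below all of them. The means were 4.69 ± 0.19 in tdp1WT and 4.38 ± 0.24 in tdp1-/- (SD, n = 3 a genotype), a difference of -0.30 with a standard error of 0.18 (95% interval -0.72 to 0.12), or 1.23-fold lower. It did not pass the test (adjusted p = 1 in limma). The exact permutation test over the arrays, two-sided, gave p = 0.2, where 3 arrays against 3 cannot go below 0.1.

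The same-numbered arrays of *aldoca* differed by 0.14 in replicate 1, -0.34 in replicate 2 and -0.70 in replicate 3 (log2, tdp1-/- minus tdp1WT). Replicate 1 went the other way from replicates 2 and 3. Leaving out each array in turn gave log2 fold changes from -0.42, without tdp1-/- replicate 1, to -0.19, without tdp1-/- replicate 3.

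The gene *ca8* encodes a protein related to carbonic anhydrases that lacks their activity and, in mammals, binds the inositol trisphosphate receptor of Purkinje cells. It measured 5.24, 5.25 and 5.35 in tdp1WT and 5.42, 5.26 and 5.21 in tdp1-/- embryos (replicates 1 to 3). These 6 values spanned 0.21 on the log2 scale, the narrowest range of the 9 genes, and the mutant arrays held both the highest and the lowest value. The difference was 0.01 (95% interval -0.30 to 0.33), which allows up to 1.26-fold higher or 1.23-fold lower values. Its sign changed, to -0.01, when the arrays were quantile normalized once more and when each was centred on its median, so *ca8* has no direction here.

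Among granule cell genes, *neurod1* was slightly higher in each same-numbered pair and *zic1* spread widely among mutant arrays. The gene *neurod1* encodes a basic helix-loop-helix factor that drives the differentiation of granule cells. It measured 7.20, 7.00 and 7.03 in tdp1WT and 7.33, 7.04 and 7.14 in tdp1-/- embryos (replicates 1 to 3). In both genotypes replicate 1 was the highest array, and the pairs differed by 0.13, 0.03 and 0.11. The difference was 0.09 (95% interval -0.25 to 0.44). Of all genes, 31.2% differed in the same direction in all 3 pairs, 14.4% of all genes upward, the background for *neurod1* and *atoh1c*, the 2 of the 9 that did so.

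The gene *zic1* encodes a zinc finger factor of the dorsal hindbrain and of granule cells. It measured 7.83, 7.46 and 7.57 in tdp1WT and 7.88, 7.11 and 7.42 in tdp1-/- embryos (replicates 1 to 3). The mutant group held both the highest and the lowest of the 6 arrays, which spanned 0.77, the widest range of the set. With means of 7.62 ± 0.19 and 7.47 ± 0.39 (SD, n = 3), the difference of -0.15 (95% interval -0.67 to 0.37) was smaller than the spread within either genotype.

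The Reelin gene *reln* was the only member seen by more than 1 cluster. Its brightest cluster measured 6.30, 6.15 and 6.27 in tdp1WT and 6.29, 6.19 and 6.45 in tdp1-/- embryos (replicates 1 to 3), a difference of 0.07 (95% interval -0.26 to 0.40). The other 3 clusters gave log2 fold changes of 0.03, 0.00 and -0.13, so that the 4 did not share a direction. None was called, and in each the genotypes overlapped. The cluster with -0.13 was the dimmest of the 4 and was lower in all 3 same-numbered pairs, with differences of -0.28, -0.05 and -0.07. Where each cluster lies in the long *reln* transcript was not analysed here.

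The ventricular zone gene *ptf1a* encodes the factor that directs progenitors to GABAergic fates. It measured 4.84, 5.35 and 5.02 in tdp1WT and 5.03, 5.40 and 4.86 in tdp1-/- embryos (replicates 1 to 3). Replicate 2 was the highest array of both genotypes. The values of the 6 arrays spanned 0.56, and the difference was 0.02 (95% interval -0.45 to 0.50). In other tissues that use *ptf1a*, the mean log2 value over 13 exocrine pancreas genes, *ptf1a* left out, was 10.32, 10.60 and 10.19 in tdp1WT and 10.34, 10.65 and 10.30 in tdp1-/- embryos. Over 12 amacrine and horizontal cell genes, again without *ptf1a*, it was 7.63, 7.36 and 7.58 in tdp1WT and 7.73, 7.28 and 7.67 in tdp1-/- embryos. Several of these 12 genes are also in other lists below, such as *gad1b*, *gad2* and *slc32a1* in that of the ventricular zone. Their mean is therefore not a level of retinal cells alone. Replicate 2 was thus highest in both genotypes for the exocrine pancreas and lowest in both for the amacrine and horizontal cell genes. It was also lowest in both for every other list described below, so this was not particular to retinal cells. The pan-neuronal genes, for example, had 7.93 in tdp1WT and 7.81 in tdp1-/- replicate 2, and the endocrine pancreas genes 6.1 and 6.02. The part of the exocrine pancreas or the retina in the *ptf1a* values was not tested.

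The 3 paralogs of the rhombic lip, *atoh1a*, *atoh1b* and *atoh1c*, did not share a direction. The gene *atoh1a* measured 4.43, 4.26 and 4.85 in tdp1WT and 4.19, 4.52 and 4.58 in tdp1-/- embryos (replicates 1 to 3), and all mutant values lay below the highest tdp1WT array. Its difference was -0.09 (95% interval -0.56 to 0.38). The gene *atoh1b* measured 3.88, 3.99 and 4.16 in tdp1WT and 3.49, 3.93 and 4.20 in tdp1-/- embryos, where the array of replicate 1 was lowest and that of replicate 3 highest in both genotypes. Its difference was -0.14 (95% interval -0.62 to 0.34). Both changed sign without tdp1-/- replicate 1, to 0.04 for *atoh1a* and 0.05 for *atoh1b*, and *atoh1a* also without tdp1WT replicate 3, to 0.08.

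The gene *atoh1c*, needed in zebrafish for part of the granule cell lineage, had the highest log2 fold change of the set. It measured 2.13, 2.28 and 2.45 in tdp1WT and 2.38, 2.78 and 2.74 in tdp1-/- embryos (replicates 1 to 3). The arrays of mutant replicates 2 and 3 lay above all tdp1WT arrays, and mutant replicate 1 lay below tdp1WT replicate 3. The means were 2.29 ± 0.16 and 2.63 ± 0.22 (SD, n = 3 a genotype), a difference of 0.35 with a standard error of 0.17 (95% interval -0.05 to 0.75), or 1.27-fold higher, and it was not called. The exact permutation test, two-sided, gave p = 0.2.

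The mutant array was above the tdp1WT array of the same number in all 3 pairs of *atoh1c*, by 0.24, 0.50 and 0.30. In limma with a block for the replicate, *atoh1c* was the only one of the 9 called, with the same log2 fold change and a 95% confidence interval from 0.03 to 0.66, but an adjusted p of 0.77. The same block called 4.04% of all genes, 1.55% of all higher and 2.49% lower in tdp1-/-. The call was also reached with array weights (log2 fold change 0.40), after median centring (0.33) and without tdp1-/- replicate 1 (0.48). It was not reached after a further quantile normalization (0.28). Nor was it with another variance prior, with rows of identical values counted once or with the mean of a gene's rows (0.35 in each). Leaving out any other array gave no call either, with log2 fold changes from 0.27 to 0.43. The deposited values hold no detection call, so whether *atoh1c*, with values of 2.13 to 2.78, was above background is not known.

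**Figure D2:**
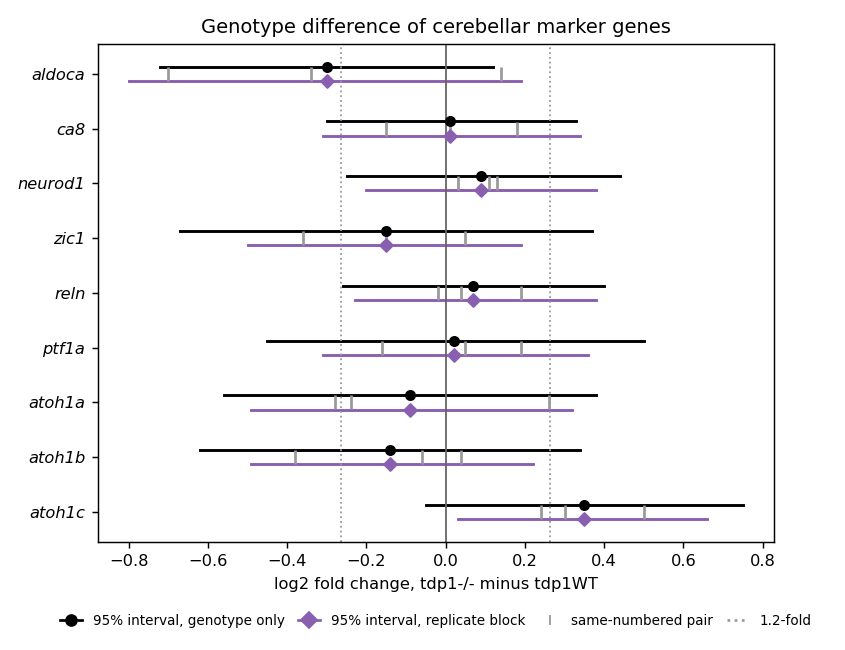
Log2 fold change (tdp1-/- minus tdp1WT) of the 9 genes with its 95% confidence interval, from the fit with genotype only (black circles) and with the replicate block (purple diamonds). Grey ticks are the 3 same-numbered pairs and dotted lines mark 1.2-fold. Every black interval spans 0, and with the block only that of *atoh1c*, from 0.03 to 0.66, does not.

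Over the 6 arrays, the genes whose values followed *atoh1c* most closely were *opn1mw1*, a green cone opsin gene (Pearson's r = 0.998), *her8a*, a hairy-related repressor gene (r = 0.994), and *si:dkey-29h14.10* (r = 0.987). Among 19259 genes compared, 235 had an r over 0.9 with *atoh1c*. All genes were read on the same 6 arrays, and so share their genotypes, experiments and normalization. So few arrays cannot set any of these genes apart. On their own, *opn1mw1* had a log2 fold change of 0.22 and *her8a* of 0.28, and neither was called. The third, *si:dkey-29h14.10*, had 0.43 and was called with the replicate block but not with genotype alone.

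Wider lists of genes of the same cells gave no call with genotype alone, a fit that called 1.89% of all genes. They include markers described above, so they partly repeat the same values. The Purkinje cell list holds 2 of these markers, the rhombic lip and granule cell list 5 and the ventricular zone list 1. Lists further below hold some too, such as *reln* in that of the Reelin pathway. With the replicate block, *atoh1c* was called in the rhombic lip and granule cell list. Of 18 measured Purkinje cell genes, 10 were below 0, where 51.4% of all genes were. Their median was -0.02, and none was called. Their log2 fold changes ran from -0.34 for *roraa*, of the same sign as *aldoca*, to 0.31 for *lhx1b*. The LIM homeobox gene *lhx1b*, of early Purkinje cells and other neurons, had the smallest p of this list and a difference of 0.31 (95% interval -0.10 to 0.73), opposite in sign to *aldoca*. It measured 7.57, 7.54 and 7.13 in tdp1WT and 7.91, 7.68 and 7.59 in tdp1-/- embryos (replicates 1 to 3). The genotypes did not overlap, as in 7.72% of all genes. Of 28 rhombic lip and granule cell genes, 16 were positive with a median of 0.09. The gene *barhl1a*, whose mouse counterpart is a homeobox factor of granule cells, had 0.34 (95% interval -0.05 to 0.73), close to *atoh1c*. It measured 5.87, 5.66 and 6.05 in tdp1WT and 6.01, 6.32 and 6.27 in tdp1-/- embryos, so that mutant replicate 1 lay below tdp1WT replicate 3 here too. Of 10 ventricular zone genes, 7 were negative with a median of -0.05. The vesicular GABA transporter gene *slc32a1* had 0.21 and the proneural gene *ascl1a* -0.15, and neither was called.

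The isthmic organizer at the border of midbrain and hindbrain patterns the cerebellum. Of its 17 genes, 12 were positive with a median of 0.09, and none was called, where 51.4% of all genes were negative. The paired box gene *pax8* measured 4.56, 4.76 and 4.82 in tdp1WT and 5.01, 4.83 and 5.26 in tdp1-/- embryos (replicates 1 to 3), and its difference was 0.32 (95% interval -0.07 to 0.71). The engrailed gene *en2a* measured 5.55, 5.75 and 5.74 in tdp1WT and 5.85, 5.99 and 5.98 in tdp1-/- embryos, and its difference was 0.26 (95% interval -0.06 to 0.58). In both the genotypes did not overlap, as in 7.72% of all genes, and both were named for having the smallest p of this list. Of 16 genes of the Reelin pathway, which runs from the ligand through its lipoprotein receptors to the adaptor Dab1 and Src family kinases, 8 were positive and 8 negative, with a median of 0.01. The kinase genes *fynb* and *cdk5* had log2 fold changes of 0.28 and -0.19, the smallest p-values of that pathway, and were not called.

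Lists of other cells that share these markers, and of pan-neuronal and glial genes, gave medians between -0.08 and 0.05. Of 21 pan-neuronal genes 16 were negative (median -0.08), of 13 genes of radial and Bergmann glia 8 (median -0.01), of 15 endocrine pancreas genes 10 (median -0.07) and of 19 hair cell genes 10 (median -0.02). Of 14 exocrine pancreas genes 10 were positive (median 0.05), and of 13 amacrine and horizontal cell genes 8 (median 0.05). Among all genes 51.4% were negative. Genes of a list were read on the same 6 arrays, so their signs are not independent, and no list was tested for a shift. None of the 171 genes in the 11 lists was called with genotype alone, where 1.89% of all genes were. With the replicate block, 4 genes of these lists were lower in tdp1-/-, the neuronal enolase gene *eno2* (log2 fold change -0.43), the glial filament gene *gfap* (-0.45), the glucagon gene *gcgb* (-0.41) and the hair cell gene *s100s* (-0.34). Together with *atoh1c* these were 5 of 171 genes in the 11 lists, or 2.92%, against 4.04% of all genes, and with the block too no row was under an adjusted p of 0.05 in limma. The mean log2 value over the pan-neuronal genes was 7.93 to 8.15 on tdp1WT arrays and 7.81 to 8.16 on tdp1-/- arrays, so the embryos of both genotypes overlapped in it. The same mean over Purkinje cell genes was 6.32 to 6.61 and 6.27 to 6.63, and over rhombic lip and granule cell genes 5.64 to 5.80 and 5.70 to 5.86.

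**Figure D3:**
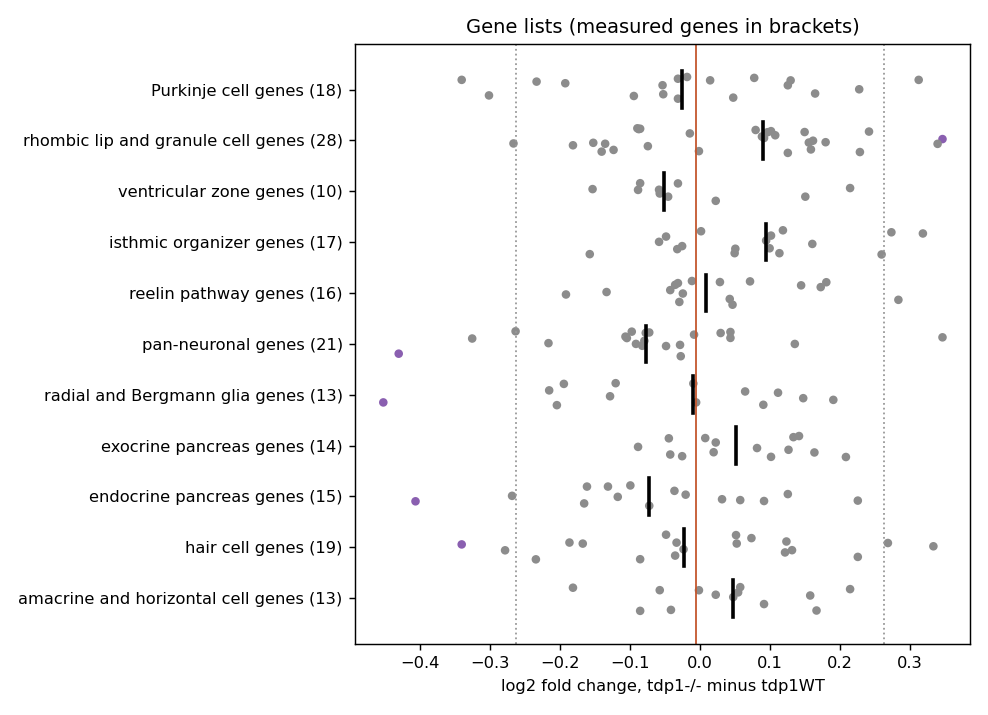
Log2 fold change (tdp1-/- minus tdp1WT) of each measured gene in 11 lists, 1 point a gene, with the list's median as a black bar and the median of all genes as an orange line. No point is called with genotype alone, a fit that called 1.89% of all genes. The 5 purple points were called with the replicate block, which called 4.04% of all genes. Medians lie between -0.08 and 0.09, and dotted lines mark 1.2-fold.

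The error of several markers was smaller in the fit with the replicate block. There the standard error fell from 0.22 to 0.13 for *zic1*, from 0.21 to 0.14 for *atoh1b* and from 0.20 to 0.13 for *ptf1a*, while for *aldoca* it went from 0.18 to 0.19. The 95% confidence intervals with the block were -0.50 to 0.19 for *zic1*, -0.49 to 0.22 for *atoh1b*, -0.31 to 0.36 for *ptf1a* and -0.80 to 0.19 for *aldoca*. Each of these intervals still held 0.

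**Figure D4:**
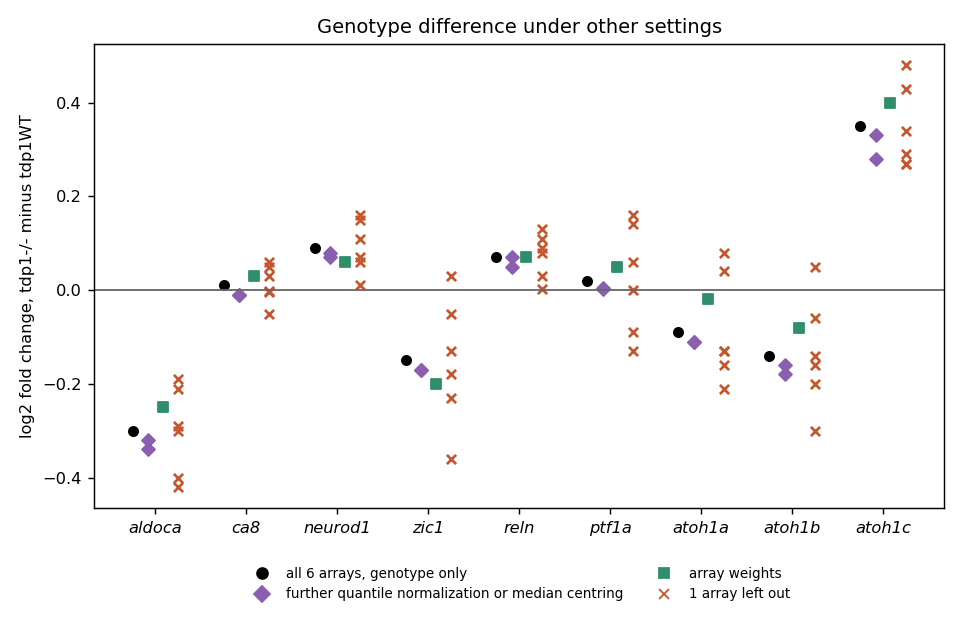
Log2 fold change (tdp1-/- minus tdp1WT) of the 9 genes with all 6 arrays and genotype alone (black), after a further quantile normalization or median centring (purple), with array weights (green) and with 1 array left out (orange crosses). Under these settings only *aldoca*, *neurod1*, *reln* and *atoh1c* stay on 1 side of 0, the last between 0.27 and 0.48.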

How the data were processed

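RNA of whole embryos (200 ng for each array) was labelled with the Affymetrix WT plus protocol. The authors processed the scans with RMA in the Transcriptome Analysis Console, and the deposited values are on the log2 scale, 1 for each transcript cluster and array. No genome build is named in the sources used here. In the platform annotation, dated years before the study, 20806 of 75212 rows have a single symbol, 855 several symbols and 53551 no symbol. Of the first kind, 20323 were matched by Entrez ID to RefSeq's table for GRCz12tu, used for names only.

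Genotypes were compared in R 4.3.3 with limma 3.58.1 (lmFit and eBayes, genotype alone), with Benjamini-Hochberg adjustment over all rows. The fit was run on simulated data with independent noise for each row and array. That simulation held no replicate effect, so it cannot tell how the fit deals with the pairing. Genes were represented by their row with the highest mean. Same-numbered arrays deviated together from their genotype means (r = 0.203, 0.216 and 0.29 for replicates 1, 2 and 3, all over 0.1). Between unlike numbers r was -0.285 to 0.0832. These correlations are not independent, because deviations from the mean of 3 arrays cancel out. On this ground the numbers were taken to pair the arrays, which the paper calls biologically independent experiments. The main fit still has genotype alone, because the paper names no block for its comparison, and the fit with the block is given beside it. The permutation test, the SDs and the counts of overlap leave the pairing out.

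The members and lists were chosen with earlier results of these data known. Named beside the members were *tdp1*, the 2 genes of each list with the smallest unadjusted p (2 lists share *slc32a1*; *mnx1*, *sypb*, *fabp7a*, *s100t*, *cel.1*, *amy2a* and *prox1a*, also so chosen, were not called), and the 3 genes most correlated with *atoh1c*, the member with the smallest p. The alternatives were the replicate block, 2 rescalings, array weights, another variance prior, a mean log2 of at least 4, distinct rows, the mean of a gene's rows, and leaving out each array. The number of arrays limits the precision.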

Additional observations from a re-analysis of the deposited data

How the results depend on the processing

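With the replicate block, 4830 rows were called in place of 2688, and 1 of the 9 markers, *atoh1c* (log2 fold change 0.35). That gene is the 1 call of the block in the rhombic lip and granule cell list, and the block called 1 further gene each of the pan-neuronal, radial and Bergmann glia, endocrine pancreas and hair cell lists, where the fit with genotype alone called 0. It changed no other call among the markers, lists and *tdp1*. Of the markers 1 was also called after median centring (*atoh1c*, 0.33) and with array weights (0.40). The same gene was the 1 call of these settings in the rhombic lip and granule cell list. Array weights called 1 hair cell gene, and median centring and a further quantile normalization 1 endocrine pancreas gene each. Of all 75212 rows, array weights called 3168, median centring 2946 and the further quantile normalization 3114. The limit of a mean log2 of at least 4 left out *atoh1b* and *atoh1c* and called 1630 rows, of fewer rows tested. The *tdp1* call was lost with array weights (-0.36) and with the other variance prior (-0.40). The difference of *ca8* was -0.01 under both rescalings (a further quantile normalization and median centring), and that of *reln* -0.01 with the mean of its rows. The causes were not tested.

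Leaving out 1 array at a time gave 1881 to 5004 called rows, the latter without tdp1-/- replicate 1, 0 to 1 called markers and a *tdp1* log2 fold change of -0.53 to -0.27. The log2 fold change was -0.21 to 0.08 for *atoh1a*, -0.30 to 0.05 for *atoh1b*, 0.27 to 0.48 for *atoh1c*, -0.05 to 0.06 for *ca8*, -0.13 to 0.16 for *ptf1a*, -0.36 to 0.03 for *zic1*, -0.42 to -0.19 for *aldoca*, 0.01 to 0.16 for *neurod1* and 0.0015 to 0.13 for *reln*. Called genes were 0 to 2 in the pan-neuronal and the rhombic lip and granule cell lists and 0 to 1 in the endocrine pancreas, hair cell, isthmic organizer, and radial and Bergmann glia lists. Both counts of 2 came without tdp1-/- replicate 1, where 5004 of all 75212 rows were called. List medians were 0.01 to 0.14 for the isthmic organizer, 0.0039 to 0.15 for rhombic lip and granule cells, -0.10 to -0.0038 for the endocrine pancreas and -0.07 to -0.01 for the ventricular zone. Those of the other lists spanned 0: -0.07 to 0.10 for Purkinje cells, -0.06 to 0.13 for the Reelin pathway, -0.14 to 0.03 for pan-neuronal genes, -0.10 to 0.05 for glia, -0.04 to 0.17 for the exocrine pancreas, -0.12 to 0.08 for hair cells and -0.02 to 0.13 for amacrine and horizontal cells.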
